A study of Homo sapiens with 6 samples.

Results

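The transcripts described here encode the proteins that take glucose into the cell, split it into pyruvate, pass pyruvate to lactate or to the mitochondrion, and divert hexose phosphate into the pentose phosphate pathway. They were chosen by symbol as 41 named genes of the 17177 genes in the table, and all 41 were found. They fell into 4 steps, with 4 genes for glucose and lactate transport, 22 for glycolysis, 9 for pyruvate entry and 6 for the pentose phosphate pathway. The libraries came from NCI-H660, an established wild-type cell line derived from neuroendocrine prostate cancer (NEPC). Cells received pyrvinium pamoate (PP), an anthelmintic drug, or phosphate-buffered saline (PBS) as the control, and were collected on day 3 with 3 libraries per treatment. The dose of PP for these libraries was not given in the sources used here. The labels do not say whether the 3 libraries of a treatment came from separate cultures. The study's figure legends speak of 3 independent samples, whereas its methods speak of duplicates for each group. What made the samples independent is not given. The p-values therefore measure only the spread between these libraries, which may be technical.

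Glycolysis converts glucose to pyruvate in the cytosol, with a preparatory phase that spends ATP and a payoff phase that returns ATP and NADH. Pyruvate is then reduced to lactate, which regenerates NAD+ and leaves the cell through monocarboxylate transporters, or it crosses the inner mitochondrial membrane through the mitochondrial pyruvate carrier and is oxidised to acetyl-CoA by the pyruvate dehydrogenase (PDH) complex. The pentose phosphate pathway branches off at glucose 6-phosphate, and supplies NADPH through its oxidative arm and exchanges sugar phosphates with glycolysis through its non-oxidative arm.

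Levels are given as FPKM (fragments per kilobase of transcript, scaled to the mapped fragments of the library), a value per transcript length that allows genes to be set side by side within a library. FPKM is a share of the sequenced RNA, so fewer transcripts per cell and a larger amount of other RNA cannot be told apart. Whole counts recovered from the FPKM values came to between 29064253 and 32481171 per library, and each library was closer to those of its own treatment than to any of the other. Differences come from limma on log2(FPKM + 1), with PBS subtracted from PP, fitted over the 11726 genes with a mean of at least 1 FPKM, and a gene is said to have risen or fallen where the Benjamini-Hochberg adjusted p over all of those genes was below 0.05. Of 8 neuroendocrine markers, CHGA, CHGB and SYP fell, SCG2 and INSM1 rose, NCAM1 and SCG3 did not pass the test, and FOXA2 was below the minimum level. The summed FPKM of these 8 markers was 213 to 217 with PBS and 195 to 202 with PP, and its part in the results was not tested. The epithelial transcripts EPCAM, KRT8, KRT18 and CDH1 summed to 1326 to 1345 FPKM with PBS and 1247 to 1307 with PP. Each of them passed the test, in different directions. KRT18 rose by 0.28, while EPCAM fell by 0.27, KRT8 by 0.15 and CDH1 by 0.37. Markers of fibroblasts (1 of 5 reached the minimum level), endothelial cells (1 of 3) and leukocytes (1 of 4) each summed to at most 4.81 FPKM in any library. PTPRC, CD3E and PECAM1 were at or near 0. Of those that reached the minimum level, COL1A1 rose by 0.26 (limma adjusted p = 0.002) and CDH5 fell by 0.39 (limma adjusted p = 0.00112). CD68 did not pass the test.

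With PP 16 of the 21 tested glycolytic transcripts fell, while the glucose transporter SLC2A1, the lactate transporter SLC16A1, the mitochondrial pyruvate carrier subunit MPC1 and transketolase (TKT) rose. Of the 41 members, 39 reached the minimum level, and 28 of them (71.8%) passed the test, beside 72.5% of all genes tested. The share of members that changed was therefore near that of all genes. Of these members 21 fell (53.8%, beside 34.4% of all genes tested) and 7 rose (17.9%, beside 38.1%). The median difference of the 39 members was -0.15, and that of all genes tested was 0.022. The 7 that rose were SLC2A1, SLC16A1, HK2, MPC1, PDHB, PDK1 and TKT. At the cutoff that the study's methods give for limma, an unadjusted P below 0.001 with a log2 difference beyond 1 or -1, only MPC1 passed upward and no member passed downward. Of all genes tested 5.18% passed it, 2.24% upward and 2.93% downward. In 8 of the 39 members all PP libraries lay above all PBS libraries, and in 21 all lay below, whereas 75% of all genes tested had groups that did not overlap, 39.5% above and 35.5% below.

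**Figure D1:**
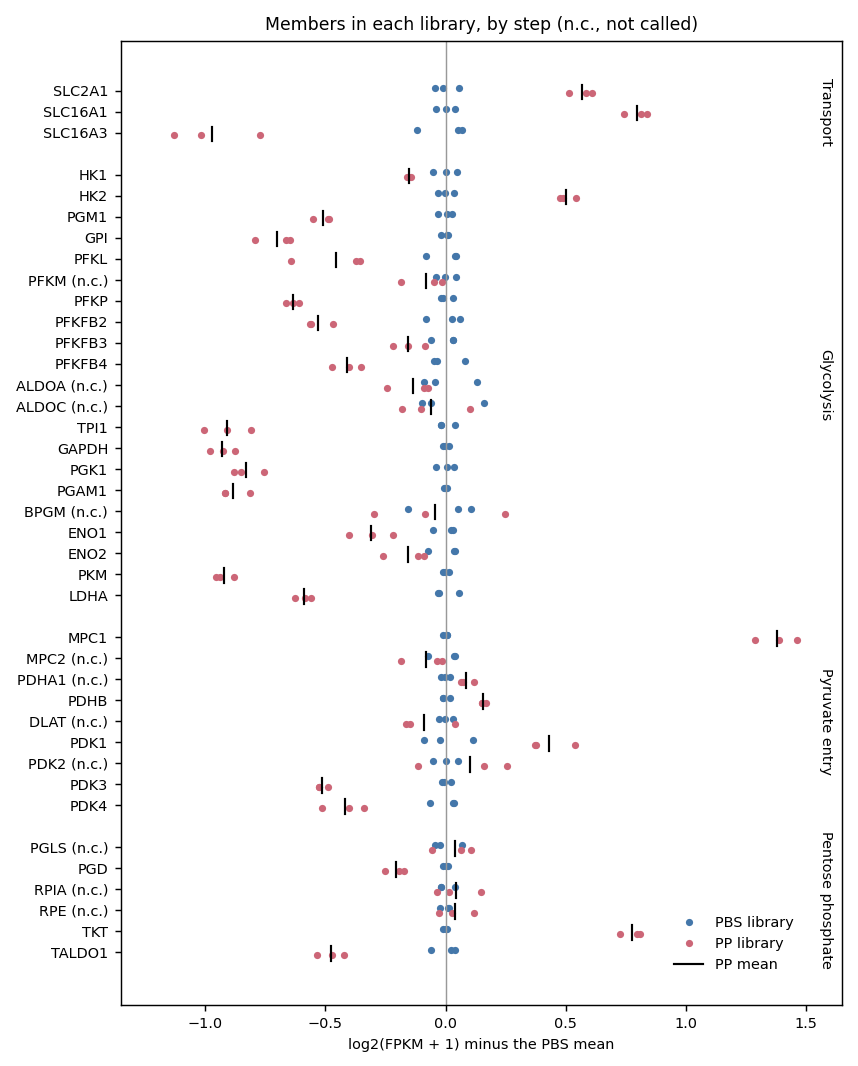
Each of the 39 tested members in each library, as log2(FPKM + 1) minus the mean of the 3 PBS libraries, ordered by step (blue, PBS; red, PP; black bar, PP mean; n.c., adjusted p of 0.05 or above). All PP points of MPC1, TKT, SLC16A1, SLC2A1 and HK2 lay to the right of the PBS points, and those of TPI1, GAPDH, PGK1, PGAM1 and PKM lay to the left near -0.9.

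In the transport step the members for glucose uptake and lactate export moved in different directions. SLC2A1 encodes GLUT1, the widely expressed facilitative glucose transporter. Its level was 18.9, 19.4 and 20.4 FPKM in PBS replicates 1, 2 and 3, and 30.3, 29.7 and 28.3 FPKM in PP replicates 1, 2 and 3. The treatment groups did not overlap, and SLC2A1 rose by 0.57 (SE 0.045, limma adjusted p = 1.33e-06) on the log2 scale. SLC2A3 encodes GLUT3, a glucose transporter of neurons, and had 0 to 3 recovered counts per library, so no difference was detectable at this depth.

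SLC16A1 and SLC16A3 encode the monocarboxylate transporters MCT1 and MCT4, which carry lactate and pyruvate with a proton across the plasma membrane. MCT4 is best known for lactate export from highly glycolytic cells. SLC16A1 was at 15.3, 14.4 and 14.9 FPKM with PBS and at 25.6, 26.8 and 27.3 FPKM with PP, and SLC16A3 was at 22.9, 25.8 and 26.1 FPKM with PBS and at 14.2, 11.8 and 10.8 FPKM with PP. Neither gene had overlapping groups. SLC16A1 rose by 0.80 (SE 0.044, limma adjusted p = 9.7e-08) and SLC16A3 fell by 0.97 (SE 0.086, limma adjusted p = 3.16e-06), the largest fall among the members. The order of this pair was therefore exchanged, and SLC16A1 made up 37.4% ± 2.32 of their summed FPKM with PBS and 68.5% ± 3.73 with PP (SD, n = 3). SLC16A3 passed the log2 fold change of -1 when counts were fitted with limma-voom, with a pseudocount of 0.1, without PBS replicate 1 and without PP replicate 1. Basigin (BSG), the membrane chaperone that both transporters need to reach the cell surface, was no member, and fell from 399 ± 1.29 to 227 ± 5.76 FPKM (SD, n = 3; log2 difference -0.81, limma adjusted p = 5.45e-09).

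**Figure D2:**
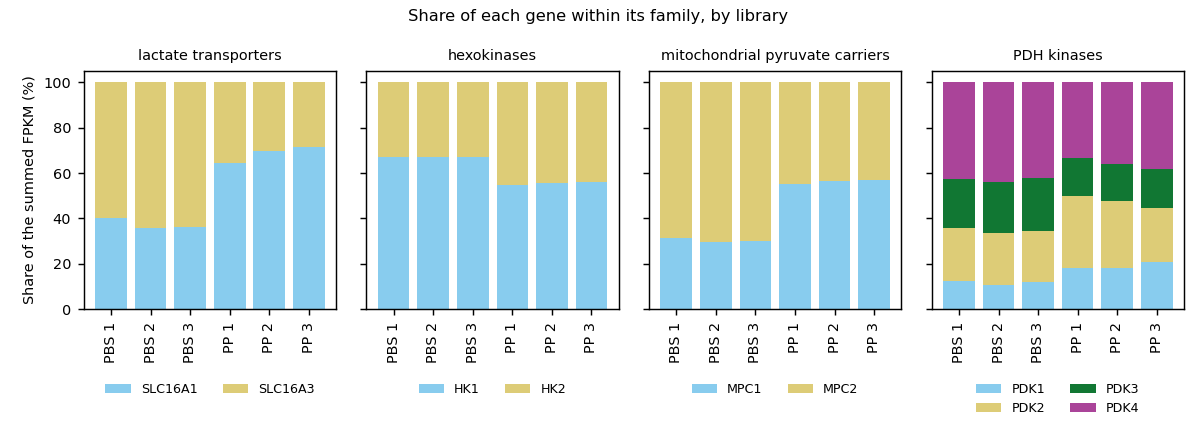
Share of each gene in the summed FPKM of its family in every library, in percent, for the lactate transporters, the hexokinases, the mitochondrial pyruvate carrier subunits and the PDH kinases. SLC16A1 and MPC1 were below 50% in each PBS library and above 50% in each PP library, and HK2 moved from 32.9% to 44.6% on average.

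Glycolysis held 22 of the 41 members, 21 of the 39 tested members and 16 of the 21 falls. Of its 21 tested genes 16 fell (76.2%, beside 34.4% of all genes tested). Only HK2 rose (4.76%, beside 38.1%), and PFKM, ALDOA, ALDOC and BPGM did not pass the test. The median difference of the 21 was -0.46, and it was -0.38 without PP replicate 3. The summed FPKM of the 22 genes was 3262, 3296 and 3317 in the PBS libraries and 2075, 2069 and 1959 in the PP libraries. This took glycolysis from 1.03% ± 0.00854 to 0.661% ± 0.0168 of all FPKM in a library (SD, n = 3), a fall of 38.2% in the summed level.

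The payoff phase, grouped here with the step from pyruvate to lactate, fell in each of its 7 tested members (beside 34.4% of all genes tested). Their median difference was -0.83 (a grouping made after the values were seen). GAPDH, the dehydrogenase that oxidises glyceraldehyde 3-phosphate and the most abundant member, was at 1063, 1072 and 1082 FPKM with PBS and at 563, 583 and 543 FPKM with PP. PKM, the pyruvate kinase that makes ATP and pyruvate in the last step, was at 454, 460 and 452 FPKM with PBS and at 237, 247 and 235 FPKM with PP. Every PP library lay below every PBS library for both, and the spread within a treatment was small beside the gap. GAPDH fell by 0.93 (SE 0.032, limma adjusted p = 3.62e-09), which moved it from rank 9 to rank 27 by mean level among all 17177 genes, and PKM fell by 0.92 (SE 0.031, limma adjusted p = 2.58e-09). PGK1, the first ATP-producing kinase, fell by 0.83 and PGAM1, the phosphoglycerate mutase, by 0.88. LDHA, the lactate dehydrogenase subunit favoured in glycolytic tissue, fell from 384 ± 13.5 to 255 ± 5.87 FPKM (SD, n = 3; log2 difference -0.59).

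The enolases, which make phosphoenolpyruvate, changed less. ENO1 fell from 545 ± 17.4 to 440 ± 28.1 FPKM (log2 difference -0.31, SE 0.046), and its interval of -0.41 to -0.21 did not reach that of PGAM1 before it (-0.97 to -0.79) or of PKM after it (-0.99 to -0.85). ENO2 encodes neuron-specific enolase (NSE), a classical neuroendocrine marker. It ran from 65.9 to 71.4 FPKM with PBS and from 57.9 to 65.2 FPKM with PP. The groups were separated by less than 1 FPKM, and ENO2 fell by 0.15 (SE 0.051, limma adjusted p = 0.0198). The call of ENO2 was lost without PBS replicate 2, without PBS replicate 3 or without PP replicate 3, with differences of -0.14, -0.13 and -0.10. LDHB, the lactate dehydrogenase subunit typical of oxidative tissue, had 5 to 32 recovered counts per library. On these few counts LDHA made up 99.92% of their summed FPKM with PBS and 99.96% with PP. Of the LDHB exon bases 33.4% are shared with another gene. The LDHA share thus depends on how shared reads were counted, which was not tested.

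**Figure D3:**
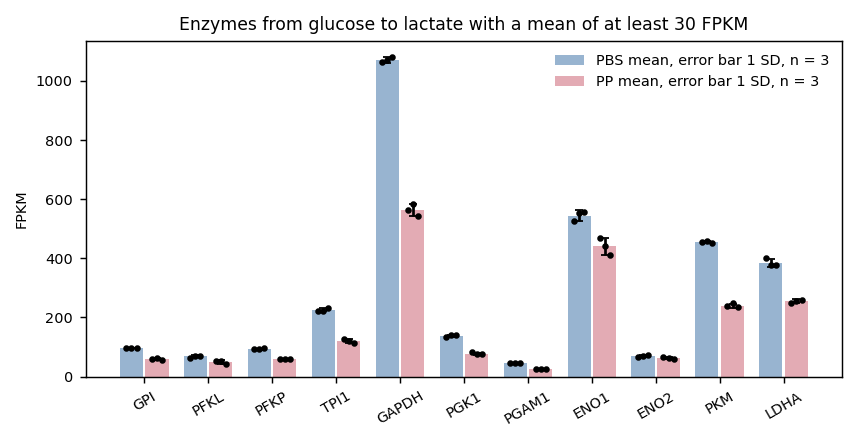
FPKM of the 11 members on the route from glucose to lactate with a mean of at least 30 FPKM, in pathway order (bars, means; error bars, 1 SD of 3 libraries; points, libraries; blue, PBS; red, PP). Each PP mean lay below its PBS mean, from 1072 to 563 FPKM for GAPDH and from 69.5 to 62.4 FPKM for ENO2.

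The preparatory phase was less uniform. The hexokinases trap glucose as glucose 6-phosphate, and HK2 is the inducible form of many tumours. HK2 was at 8.26, 7.83 and 8.02 FPKM with PBS and at 12.2, 11.7 and 11.6 FPKM with PP, without overlap. It rose by 0.50 (SE 0.047, limma adjusted p = 4.79e-06), against the direction of the other glycolytic members that passed the test. HK1, the housekeeping form, fell from 16.4 ± 0.604 to 14.6 ± 0.0988 FPKM (SD, n = 3; log2 difference -0.15, limma adjusted p = 0.00941). HK1 remained the more abundant of the pair in every library, with 54.8% to 55.9% of their summed FPKM with PP.

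Further down the preparatory phase, GPI, the glucose phosphate isomerase, fell by 0.70 and TPI1, the triose phosphate isomerase, by 0.91. Of the phosphofructokinases, which catalyse the committed step, the liver form PFKL fell by 0.46 and the platelet form PFKP by 0.64, while the muscle form PFKM, at 6.42 ± 0.211 and 6.02 ± 0.437 FPKM (SD, n = 3), had a difference of -0.08 with a 95% interval of -0.22 to 0.05. In PFKL, PP replicate 3 was at 43.4 FPKM and the other PP libraries at 52.5 and 53.1 FPKM. The bifunctional enzymes PFKFB2, PFKFB3 and PFKFB4 set the level of fructose 2,6-bisphosphate, the activator of phosphofructokinase, and they fell by 0.53, 0.15 and 0.41. The call of PFKFB3 was lost when any of PBS replicate 2, PBS replicate 3, PP replicate 2 or PP replicate 3 was left out, with adjusted p of up to 0.0771. PGM1, which links glycogen to glucose 6-phosphate, fell by 0.51.

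The aldolases, which split fructose 1,6-bisphosphate, did not pass the test. ALDOA was at 11.4 ± 1.02 and 10.3 ± 0.731 FPKM (SD, n = 3; interval of the difference -0.29 to 0.02), and ALDOC at 1.83 ± 0.28 and 1.71 ± 0.28 FPKM (interval -0.27 to 0.15). In the GENCODE annotation 42.8% of the exon bases of ALDOA are shared on the same strand with another protein-coding gene, and 33.4% of those of LDHB, so the level of either depends on how shared reads were counted, and that was not tested. BPGM, which makes 2,3-bisphosphoglycerate, had an interval of -0.32 to 0.23. GAPDH has 65 annotated pseudogenes named after it, PGAM1 has 13 and LDHA has 6, and reads may be divided between these and the parent gene.

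Pyruvate entry into the mitochondrion showed the largest rise of all members. MPC1 and MPC2 form the mitochondrial pyruvate carrier as a heterodimer. MPC1 was at 9.61, 9.73 and 9.73 FPKM with PBS and at 26.9, 25.1 and 28.5 FPKM with PP. The groups lay far apart beside their own spread, and MPC1 rose by 1.38 (SE 0.051, limma adjusted p = 5.43e-09), which placed it at rank 106 of the 11726 genes from the highest log2 difference. MPC2 was at 22.2 ± 1 and 21.0 ± 1.41 FPKM (SD, n = 3), with a difference of -0.08 and an interval of -0.20 to 0.04. The ratio of MPC1 to MPC2 was 0.456, 0.426 and 0.427 with PBS and 1.22, 1.29 and 1.31 with PP.

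Of the 3 members that encode subunits of the PDH complex, only PDHB passed the test. PDHB, the E1 beta subunit, rose from 27.7 ± 0.348 to 30.9 ± 0.201 FPKM (SD, n = 3; log2 difference 0.16, limma adjusted p = 0.00249). PDHA1, the E1 alpha subunit, lay above PBS in each PP library but did not pass the test (difference 0.09, interval 0.00474 to 0.17, limma adjusted p = 0.0548). DLAT, the E2 subunit, had an interval of -0.22 to 0.04, and it passed the test as lower (difference -0.16) without PP replicate 3, in which it was at 23.1 FPKM beside 19.9 and 20.2 FPKM in the other PP libraries. The ratio of LDHA to PDHA1, the enzymes at the branch between lactate and acetyl-CoA, was 11.4 to 12.3 with PBS and 7.03 to 7.65 with PP (this pair was chosen after the values were seen).

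The PDH kinases phosphorylate E1 alpha and switch the complex off. PDK1, a well-known hypoxia-responsive kinase, was at 4.58, 3.83 and 4.06 FPKM with PBS and at 5.68, 5.67 and 6.48 FPKM with PP. PDK3 was at 7.76, 7.81 and 7.999 FPKM with PBS and at 5.16, 5.16 and 5.31 FPKM with PP, and PDK4, known for its induction in fasting, was at 15.5, 15.5 and 14.4 FPKM with PBS and at 10.3, 11.2 and 11.8 FPKM with PP. None of the 3 kinases had overlapping groups. PDK1 rose by 0.43 (SE 0.072, limma adjusted p = 0.000352), while PDK3 fell by 0.51 (SE 0.049, limma adjusted p = 5.41e-06) and PDK4 by 0.42 (SE 0.056, limma adjusted p = 6.73e-05). PDK2 did not pass the test (interval -0.09 to 0.29), but passed it as higher, with a difference of 0.21, without PP replicate 3. PDK4 remained the most abundant of the kinases in every library, at 43.0% ± 0.95 of their summed FPKM with PBS and 35.8% ± 2.36 with PP (SD, n = 3).

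In the pentose phosphate pathway TKT rose, TALDO1 and PGD fell, and the other 3 members did not pass the test. TKT encodes transketolase, which moves carbon pairs between sugar phosphates with thiamine diphosphate as cofactor. It was at 215, 217 and 218 FPKM with PBS and at 377, 380 and 358 FPKM with PP. TALDO1 encodes transaldolase, its partner in the exchange, and was at 85.6, 91.9 and 90.7 FPKM with PBS and at 66.3, 64.1 and 61.4 FPKM with PP. The groups of neither gene overlapped. TKT rose by 0.78 (SE 0.032, limma adjusted p = 1.1e-08) and TALDO1 fell by 0.48 (SE 0.041, limma adjusted p = 2.76e-06), so that the ratio of TKT to TALDO1 went from 2.36 to 2.51 across the PBS libraries to 5.68 to 5.92 across the PP libraries. The summed FPKM of the step was 491 ± 5.05 with PBS and 607 ± 14.8 with PP (SD, n = 3), and TKT was its only member that rose.

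In the oxidative arm PGD, the 6-phosphogluconate dehydrogenase that yields NADPH, was at 118, 118 and 117 FPKM with PBS and at 98.6, 104 and 103 FPKM with PP, without overlap. PGD fell by 0.21 (SE 0.033, limma adjusted p = 0.000234). PGLS, the lactonase before it, and the isomerase RPIA and the epimerase RPE, which interconvert the pentose phosphates, did not pass the test, with intervals of -0.08 to 0.15, -0.08 to 0.16 and -0.07 to 0.14. Of the 8 members at 100 FPKM or more with PBS, TKT was the only one that rose (beside 38.1% of all genes tested). The other 7 (ENO1, GAPDH, LDHA, PGD, PGK1, PKM and TPI1) fell (beside 34.4%). This cut used the PBS level alone, which favours genes that were lower with PP. The shares among all genes at that level were not worked out.

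**Figure D4:**
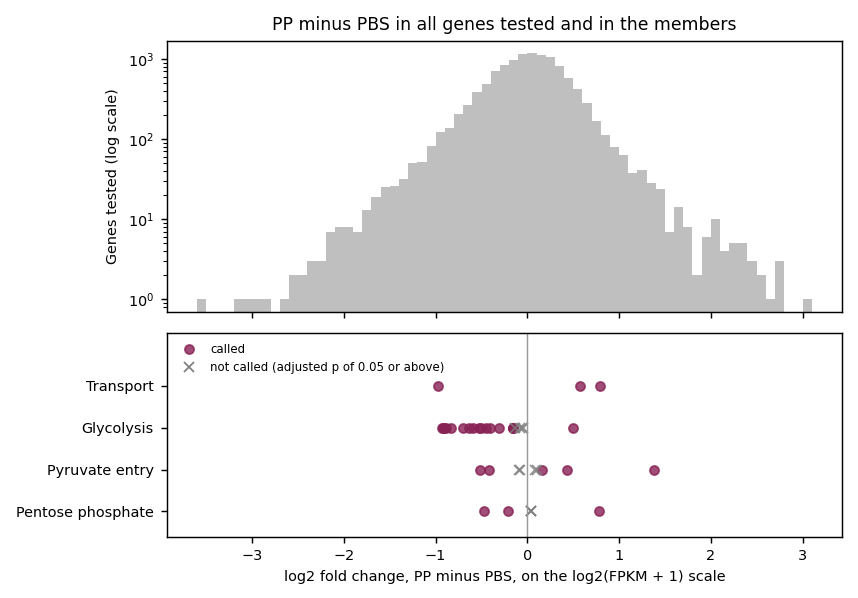
Upper panel, number of genes in bins of the log2 difference, PP minus PBS, for the 11726 genes tested (log axis). Lower panel, the 39 tested members on the same axis by step (circle, adjusted p below 0.05; cross, not called). Glycolysis lay mostly left of 0, from -0.93 to 0.50, and MPC1 lay at 1.38 among the pyruvate entry genes.

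A further 73 genes of these pathways, listed from general knowledge, were examined beside the members. Of these 68 were in the table, 37 reached the minimum level, 17 rose (45.9%, beside 38.1% of all genes tested), 12 fell (32.4%, beside 34.4%) and 8 did not pass the test. The share called, 78.4%, was near the 72.5% of all genes. Around pyruvate entry 5 of 7 rose and none fell. PDP1, the phosphatase that reverses the PDH kinases, went from 31.3 ± 0.266 to 80.2 ± 1.69 FPKM (SD, n = 3; log2 difference 1.33, limma adjusted p = 4.49e-10), past the cutoff of the study's methods. LIAS, which makes the lipoyl cofactor of the complex, rose by 0.91, and PDHX, which binds the E3 subunit to the complex, rose by 0.50.

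The genes listed under glycogen rose in 9 of 9 tested (beside 38.1% of all genes tested), with a median difference of 0.29. PGM1, which also serves glycogen but was listed under glycolysis, fell by 0.51. The 9 of 9 therefore depends on how genes were assigned to the lists, which were chosen with earlier results of these data known. GYG1, the glycogenin that primes glycogen synthesis, went from 10.3 ± 0.333 to 17.0 ± 0.956 FPKM, PYGB, the brain form of glycogen phosphorylase, from 33.9 ± 0.485 to 54.6 ± 2.58 FPKM, and UGP2, which makes UDP-glucose, from 35.7 ± 2.55 to 45.4 ± 1.24 FPKM (SD, n = 3). Of the gluconeogenic genes PCK2, the mitochondrial phosphoenolpyruvate carboxykinase, rose by 0.83, while the bisphosphatase FBP1 fell by 1.02 and the ubiquitous glucose 6-phosphatase G6PC3 by 0.73. FBP1, PDP1 and the hexokinase-domain gene HKDC1, which went from 0.268 ± 0.077 to 2.30 ± 0.179 FPKM (log2 difference 1.38), were past the cutoff. HKDC1 and PGAM2 (0.643 FPKM with PBS, 1.68 with PP) reached the minimum level only through PP. SLC2A12 (1.74 FPKM with PBS, 0.652 with PP) reached it only through PBS. The filter thus let these genes in through the group where they were high, and they are among the counts above and below. The fold of low genes depends on the pseudocount: HKDC1 was at 3.11 with limma-voom and 2.73 with a pseudocount of 0.1, and under these settings SLC2A12 (-1.44 and -1.30), PGAM2 (1.40 and 1.30) and LIAS (1.08 and 1.08) also lay beyond 1 or -1. FBP1 was at -0.98 without PBS replicate 3 and -0.99 without PP replicate 1.

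Among the other listed glycolytic genes PGAM2, the muscle mutase, rose by 0.71 but was tested only through its PP level. ENO3, the muscle enolase, fell by 0.50. The remaining transport genes fell in 5 of 7 tested (beside 34.4% of all genes tested). Among them were the glucose transporters SLC2A6 and SLC2A12, with differences of -0.82 and -0.73. SLC2A12 was tested only through its PBS level, so its place among these falls was favoured by the filter. In the pentose group PRPS2, a phosphoribosyl pyrophosphate synthetase, fell by 0.60 and SHPK, the sedoheptulose kinase, by 0.40, and the other 4 did not pass the test.

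**Figure D5:**
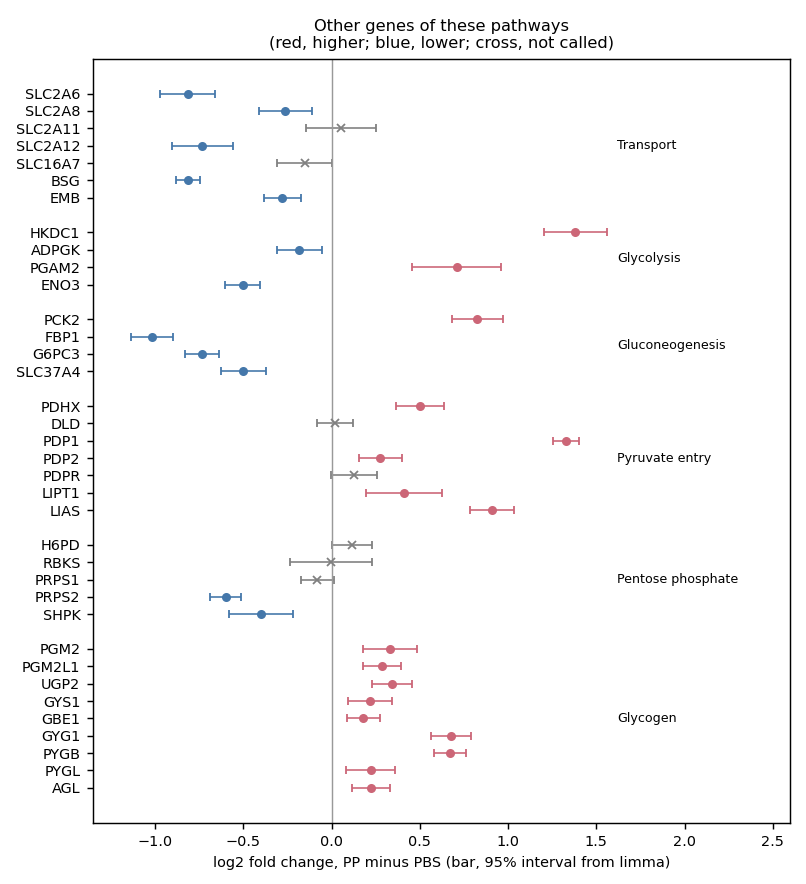
Log2 difference, PP minus PBS, of 36 tested genes of the same pathways that were no members, by role (point, limma estimate; bar, 95% interval; red, risen; blue, fallen; grey cross, not called). Of the 37 tested, 1 that did not pass the test is not shown. The 9 genes listed under glycogen lay to the right of 0, PDP1 and HKDC1 lay above 1.3, and FBP1 lay at -1.02.

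MYCN, which the study examined as a partner of the RNA-binding protein ELAVL3, binds the E-box CACGTG, and so the promoters of the members were searched for these letters. RefSeq promoters (GRCh38.p14, 250 bases before to 50 after the start site) matched 38 of the 41 members, and PFKFB2, SLC16A1 and SLC2A3 had no entry. CACGTG reads the same on both strands and was found in 4 of the 38 (10.5%), beside 10.4% of the 9557 promoters of tested genes and 7.43% of all 27305 promoters. The shorter letters ACGTG, searched on both strands and contained in every CACGTG, were found in 13 of the 38 (34.2%), beside 26.8% and 21.6%. Positions are those of the first base of the E-box, with the start site as 0. The stretches with the E-box in capitals are shown to place it in each gene, and they lie at chr12:6535171-6535200 on the plus strand for GAPDH, chr11:18394366-18394395 and chr11:18394464-18394493 on the plus strand for LDHA, chr3:58434051-58434080 on the minus strand for PDHB and chr17:28577118-28577145 on the minus strand for ALDOC.
GAPDH, position -81: gctctgcggggtCACGTGtcgcagaggagc
LDHA, position -185: agactcccagcgCACGTGgagcagtctgcc
LDHA, position -87: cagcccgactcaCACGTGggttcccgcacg
PDHB, position -236: acaccgaccaggCACGTGtgcccagcgtgc
ALDOC, position -240: aagtgcccggCACGTGgtaaagggattg
GAPDH and LDHA fell with PP, PDHB rose and ALDOC did not pass the test. By call, the E-box was in 2 of 20 promoters of members that fell, 1 of 6 that rose and 1 of 11 that were not called. A match is a description of letters in this window and not a site of binding.

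GAPDH and ENO2 were also assayed elsewhere in the study by PCR or blotting, and the primers of its oligo list are printed to show where on these 2 transcripts such an assay reads.
GAPDH forward: ggtgaaggtcggagtcaacg
GAPDH reverse: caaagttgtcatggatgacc
NSE (ENO2) forward: ctgtatcgccacattgctcagc
NSE (ENO2) reverse: agcttgttgccagcatgagagc
Both GAPDH primers matched 4 of 6 annotated coding transcripts, and both ENO2 primers matched 4 of 7, with a product of 101 bases for ENO2 and of 497 to 524 bases for GAPDH. The sources used here do not say which gene served as the reference in quantitative PCR. In these libraries the FPKM ratio of ENO2 to GAPDH was 0.062, 0.0665 and 0.066 with PBS and 0.116, 0.11 and 0.107 with PP. The ratio thus lay higher in every PP library, although ENO2 itself fell (this pair, too, was chosen after the values were seen).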

How the data were processed

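Total RNA of NCI-H660 cells was made into strand-specific mRNA libraries, 3 per treatment (PBS, PP). The authors deposited FPKM values per gene symbol. The submitters' processing notes name fastp, HISAT2, HTSeq and GRCh38, whereas the methods name Bowtie and hg19, with RSEM, Cufflinks and HTSeq for quantification, so the tools behind the FPKM are uncertain. Every gene's FPKM values were whole multiples of a step (tolerance 0.01 count), which gave whole counts for all 17177 genes (268 at 0 throughout). Pairs of libraries differed by a chi-square per degree of freedom of 3.36 to 6.91 within a treatment and 143.91 to 164.05 between treatments, so no library was a repeat of another.

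Differences were fitted with limma 3.58.1 in R 4.3.3 (lmFit, eBayes with trend, two-sided) on log2(FPKM + 1) and kept genes whose mean FPKM was 1 or more. On data simulated for PP against PBS (11724 genes tested), 97 of 97 genes changed by 1 and 98 of 98 changed by 2 on the log2 scale were called, with a median fitted change of 91.1% and 93.6% of the true one, and 15 of 11529 unchanged genes were called. The fitted change thus fell short of the true one in the median, and it was not split by level. The simulation changed only 195 of its tested genes, whereas 72.5% passed the test in the data, so its rates need not hold there. The members and gene lists were chosen with earlier results of these data known. Members past the cutoff, the 2 largest rises and falls of each step and GAPDH are given in every library, and at most 3 changed genes per role of the other pathway list are named. Results for some listed genes are not reported here. Alternatives varied the pseudocount, filter, scaling, eBayes trend, tool, replicate block and libraries. Exon overlaps and pseudogenes come from GENCODE mapped to GRCh37, and promoters from RefSeq. Counts and figures were made in Python 3.11.15 (matplotlib 3.10.9).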

Additional observations from a re-analysis of the deposited data

How the results depend on the processing

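Of the 28 members that passed the test, 26 kept their call under each of the 13 alternatives that tested them (6 of which left out a library), and the exceptions were PFKFB3 and ENO2. No result that passed its test changed direction. The number of members past the cutoff of the methods downward was 1 (SLC16A3) with limma-voom on recovered counts and with a pseudocount of 0.1, and ran from 0 to 1 when a library was left out, beside 0 as reported. With the replicate number as a block, 7 members rose and 20 fell (PFKFB3 was lost), and 4260 and 3878 of all genes did. Same-numbered libraries did not deviate together (correlations of -0.21, -0.014 and -0.13). No pairing by number was visible in the values, which cannot show whether the cultures were paired. The glycolysis median was -0.53 with limma-voom, -0.52 at a minimum of 5 FPKM and between -0.51 and -0.38 when a library was left out. Scaling by median-ratio size factors moved the median of all genes by -0.013 and changed no member's call. Depth left SLC2A3 and LDHB without a usable value.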
